A study of Rattus norvegicus with 6 samples.

Results

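The genes described here encode glucose and lactate transporters, enzymes of glycolysis, kinases that regulate it, and enzymes of the pentose phosphate pathway. Further ones encode subunits, oxygen sensors and other targets of the hypoxia-inducible factors (HIFs). All these members were chosen as 42 gene symbols, of which 41 were found by name among the 19266 genes of the deposited table. Pgd was not analysed here. RNA came from rat mesenchymal stem cells of the bone marrow (cell line SCSP-402, wild type), in 6 libraries. All were co-cultured with BV2, an immortalised mouse microglial line, with 3 libraries left unstimulated and 3 stimulated with LPS, the endotoxin of gram-negative bacteria and the ligand of toll-like receptor 4. The labels put all 6 in 1 batch. LPS dose, duration, oxygen level, medium, and how the cell types were kept apart are not stated in the labels. Nothing says that replicates were separate cultures, so the spread behind each p-value may be technical.

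Glycolysis splits glucose into pyruvate in the cytosol, and lactate dehydrogenase with the lactate exporters lets it run without mitochondrial oxidation. The pentose phosphate pathway branches off at glucose 6-phosphate and yields NADPH and ribose. HIF alpha subunits are made continuously and, in normal oxygen, are marked for destruction by prolyl hydroxylases of the Egln family. HIF level is thus set largely at the protein, which RNA does not show. Stabilised HIF induces most genes of glycolysis, its own hydroxylases, and genes of collagen processing, mitophagy and pH control, and many cells stimulated through toll-like receptors also raise glycolytic genes.

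With LPS, RNA of all 15 glycolytic enzymes and all 4 transporters among the members rose. Member HIF targets outside glycolysis divided into genes that rose and genes that did not pass the test. Further genes of these pathways are given below. Genes with at least 1 FPKM (fragments per kilobase per M fragments) in at least 3 libraries were tested, 11559 in all, and 40 of the 41 members were among them. By edgeR's quasi-likelihood test with Benjamini-Hochberg adjustment over all tested genes and a threshold of 0.05, 34 of the 40 members were higher with LPS, 0 were lower and 6 did not pass. Over all tested genes 20.1% were higher and 19.0% lower. Egln3 passed the filter through its LPS libraries alone, and of the other 39 members 33 were higher. Folds come from the edgeR fit to the counts, while levels are given in FPKM. The median log2 fold change was 0.75 over these 39 and 0.00 over all tested genes. The same 34 members had every LPS library above every untreated one in FPKM, as did 32.8% of tested genes, and none had every LPS library below, as did 20.6%. The members were chosen with earlier results of these data known, so these counts describe them and are not independent evidence. In bulk RNA, fewer cells of a type and less RNA per cell cannot be told apart.

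Total counts ranged from 77.4 M to 80.8 M units without LPS and from 79.1 M to 82.03 M with it. Untreated replicate 1 stood apart from its group, at -11.0 on the first principal component, against -26.7 and -26.6 for the other untreated libraries and 19.4 to 22.5 for LPS. Calls of members that changed without it are given with and without it. All 10 mesenchymal stromal markers passed the filter, with summed levels of 21850 to 23490 FPKM untreated and 17690 to 17830 with LPS. Most of that sum was Col1a1 and Col1a2, which fell. Of the 10 markers 5 rose and 4 fell, beside 20.1% and 19.0% of all tested genes. Their median log2 fold change was 0.07, with Pdgfra 2.90-fold and Nt5e 2.73-fold higher. Of 14 microglia and macrophage markers examined, 2 passed the filter (Tmem119 and Fcer1g), and none was at 0 in every library. BV2 is a mouse line and reads were aligned to the rat genome. How fully these values would show BV2 RNA was not tested. The list's summed level was 66.9 to 74.4 FPKM in untreated and 72.4 to 97.5 in LPS libraries. Most of that sum was Tmem119, at 62.4 to 66.6 FPKM untreated and 68.4 to 70.7 with LPS. The highest sum came with Fcer1g at 27.4 FPKM in LPS replicate 1, against 2.29 and 2.98 in the other LPS libraries. Ptprc, Itgam, Aif1 and Cx3cr1 had group means of at most 0.0625 FPKM, whereas Adgre1 had means of 0.0453 untreated and 0.329 with LPS and Cd68 of 0.253 and 0.417, all below the filter. Ribosomal RNA genes took 0.0961% to 0.199% of untreated counts and 0.129% to 1.36% of LPS counts. Mitochondrial genes took 2.60% to 2.85% and 2.90% to 3.20%, without overlap. The part of these shifts in the results was not tested.

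**Figure D1:**
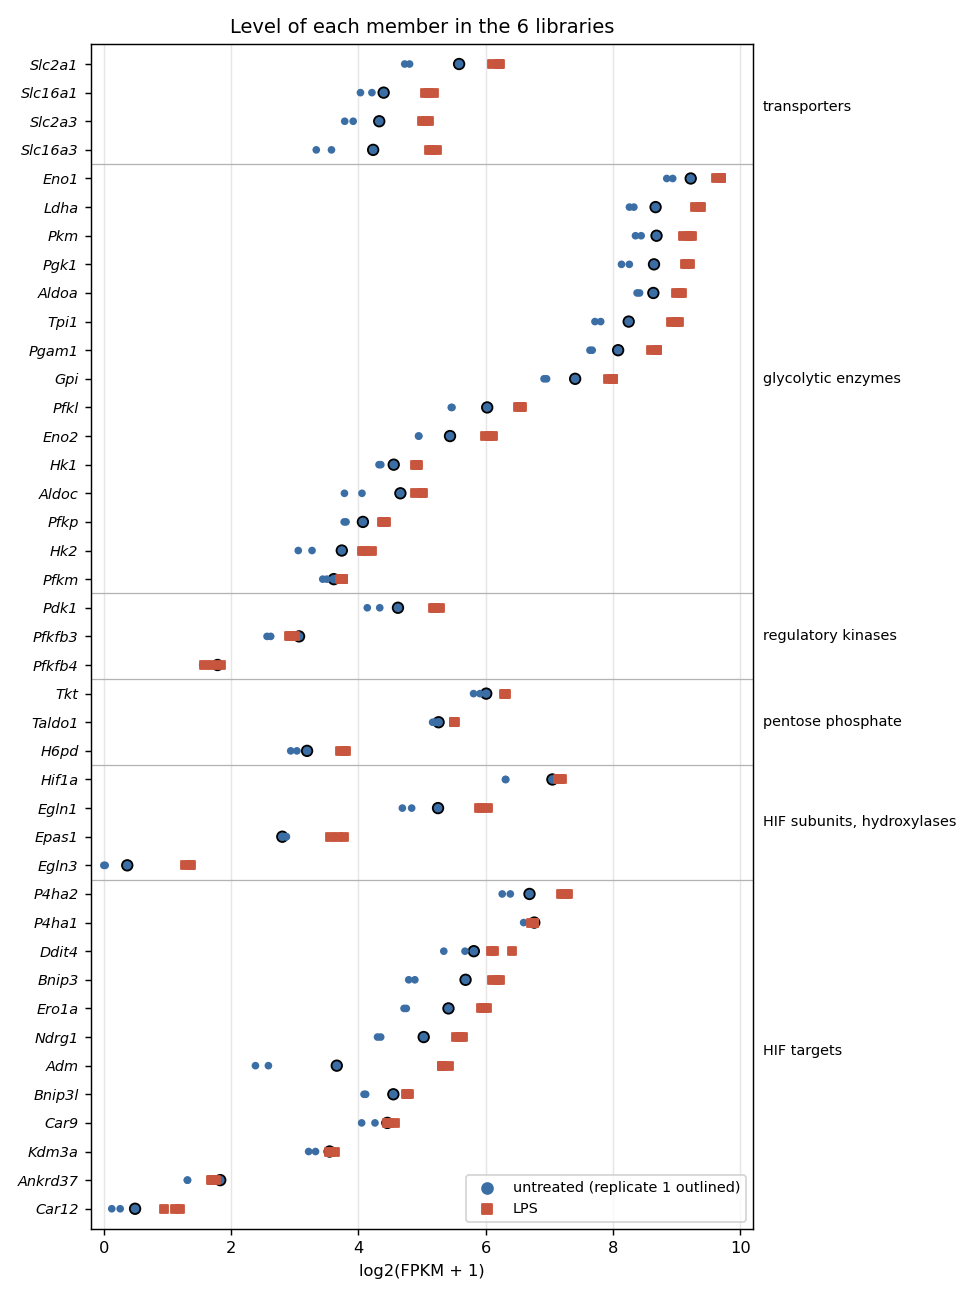
Level of each of the 41 members as log2(FPKM + 1) in the 3 untreated libraries (blue circles, replicate 1 outlined) and the 3 LPS libraries (red squares), ordered by role and mean level. The squares lie to the right of all circles for 34 of the 40 tested members, and the outlined circle mostly lies between the other circles and the squares.

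RNA of the glucose importers and of the lactate carriers rose. Slc2a1 encodes GLUT1, the widespread glucose importer, and is annotated on chromosome 5 (plus strand, 132717196 to 132745416, mRatBN7.2). It stood at 46.9, 26.9 and 25.5 FPKM in untreated replicates 1, 2 and 3 and at 74.2, 73.0 and 67.5 in LPS replicates 1, 2 and 3. Untreated replicate 1 was high among the untreated libraries, and the groups did not overlap. The log2 fold change was 1.06 ± 0.20 (SE; adjusted p = 0.00397). Slc2a3, the high-affinity importer GLUT3, stood at 19.1, 14.1 and 12.8 FPKM untreated and 33.7, 32.3 and 31.0 with LPS, a 2.04-fold rise (adjusted p = 0.00052). Slc2a1 rose 2.09-fold, and it made up 67.8% ± 2.92 of their summed FPKM in untreated and 68.9% ± 0.399 in LPS libraries (SD, n = 3).

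Of the lactate carriers, Slc16a3 (MCT4, known for lactate export from glycolytic cells) had the largest rise among transporters and enzymes. It stood at 17.8, 10.9 and 9.11 FPKM untreated and 34.7, 36.9 and 33.5 with LPS, with a log2 fold change of 1.43 ± 0.21 (SE, adjusted p = 0.00107). Slc16a1 (MCT1, which carries lactate in both directions) stood at 20.1, 15.4 and 17.5 FPKM untreated and 35.5, 33.6 and 32.1 with LPS (1.85-fold, adjusted p = 0.000221). Slc16a3 took 40.9% ± 6.43 of their summed FPKM untreated and 50.9% ± 1.42 with LPS (SD, n = 3). Their order depends on the unit. In counts, which are not per length, Slc16a3 was the major form in all 6 libraries, at 63.4% ± 6.24 and 72.4% ± 1.14 (SD, n = 3). The FPKM shift of 10 percentage points had p = 0.1 in an exact two-sided permutation test over the 6 libraries. This is the smallest p that 3 against 3 allows, and was 0.183 after adjustment over the 11 gene families compared this way.

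All 15 glycolytic enzymes among the members rose, with log2 fold changes from 0.19 to 0.99 and a median of 0.76. Summed over the 15, they stood at 3141, 2470 and 2385 FPKM in untreated replicates 1 to 3 and at 4614, 4693 and 4401 with LPS. That is 1.02%, 0.811% and 0.787% of all FPKM untreated and 1.46%, 1.48% and 1.40% with LPS. The enzymes spanned a wide range of levels. Enolase 1 (Eno1), which makes phosphoenolpyruvate, was the most abundant, at 596, 490 and 459 FPKM untreated and 826, 833 and 789 with LPS, a 1.53-fold rise (adjusted p = 0.000816). The muscle-type phosphofructokinase Pfkm had the smallest change, at 10.5 ± 0.707 FPKM untreated and 12.4 ± 0.240 with LPS (SD, n = 3). Near-identical pseudogene copies are known for several glycolytic enzymes, so their levels are uncertain as far as the counting split reads among copies.

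Triose phosphate isomerase (Tpi1), which interconverts the products of the aldolase reaction, had the largest rise of the enzymes. It stood at 303, 223 and 209 FPKM untreated and 507, 526 and 480 with LPS, with a log2 fold change of 0.99 ± 0.12 (SE, adjusted p = 0.00047). Eno2, the enolase known as neuron-specific, rose 1.86-fold, from 42.4, 29.8 and 29.9 FPKM to 66.0, 68.1 and 62.4. Lactate dehydrogenase A (Ldha), which turns pyruvate into lactate, stood at 406, 320 and 305 FPKM untreated and 664, 660 and 624 with LPS (1.83-fold, adjusted p = 0.000297). The liver-type phosphofructokinase Pfkl, which catalyses the committed step, rose from 64.0, 43.4 and 43.0 FPKM to 93.0, 93.7 and 89.9 (1.78-fold, adjusted p = 0.00197). In each of these enzymes untreated replicate 1 was the highest untreated library and still lay below all LPS libraries.

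The other enzymes followed the same direction. Gpi (glucose 6-phosphate isomerase), Pgam1 (phosphoglycerate mutase), Pgk1 (phosphoglycerate kinase) and Hk2 (an inducible hexokinase) rose between 1.69-fold and 1.76-fold. Aldoc, an aldolase best known from brain, rose 1.67-fold, a call that was lost on leaving out untreated replicate 2 (adjusted p = 0.057) or LPS replicates 2 (0.0591) or 3 (0.0523). Pkm (pyruvate kinase), Aldoa (the main aldolase), Pfkp (the platelet-type phosphofructokinase) and Hk1 (the constitutive hexokinase) rose between 1.39-fold and 1.55-fold. The Pfkm call (1.14-fold, adjusted p = 0.0212) was lost with quantile normalisation (0.0641) and on leaving out untreated replicates 2 (0.0757) or 3 (0.0616) or LPS replicates 2 (0.0639) or 3 (0.0632).

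**Figure D2:**
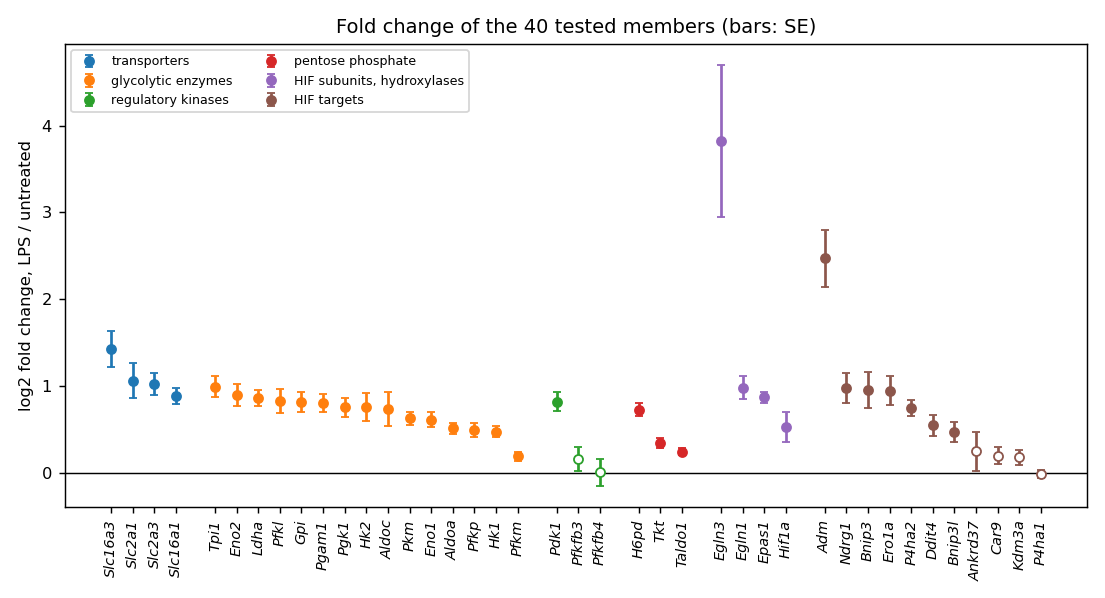
Log2 fold change of the 40 tested members, LPS over untreated, from the edgeR fit, with bars of 1 standard error and colours by role. Filled points passed the adjusted threshold of 0.05 and the 6 open points did not; the glycolytic enzymes lie between 0.19 and 0.99, and Egln3 and Adm stand above the rest.

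Shares of paralogs within a step were compared because they do not depend on how libraries are scaled. They were taken among the members only, so other paralogs, such as the muscle enolase Eno3, are left out. Pfkl took 70.3%, 65.8% and 64.8% of phosphofructokinase FPKM untreated and 73.9%, 74.1% and 73.6% with LPS, while Pfkm took 14.3% ± 1.72 and 9.94% ± 0.302 (SD, n = 3). The groups did not overlap for either share. Eno2 took 6.17% ± 0.454 of the summed FPKM of Eno1 and Eno2 untreated and 7.43% ± 0.118 with LPS, also without overlap. Each of these shifts had p = 0.1 by the exact two-sided permutation test, the smallest that this test can give with 3 libraries a group, and 0.183 adjusted. Hk2 took 31.4% ± 4.05 of hexokinase FPKM untreated and 36.1% ± 1.77 with LPS, with overlapping libraries (exact p = 0.2). Aldoc took 4.62% ± 1.06 and 5.45% ± 0.337 of aldolase FPKM, again overlapping (exact p = 0.3).

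**Figure D3:**
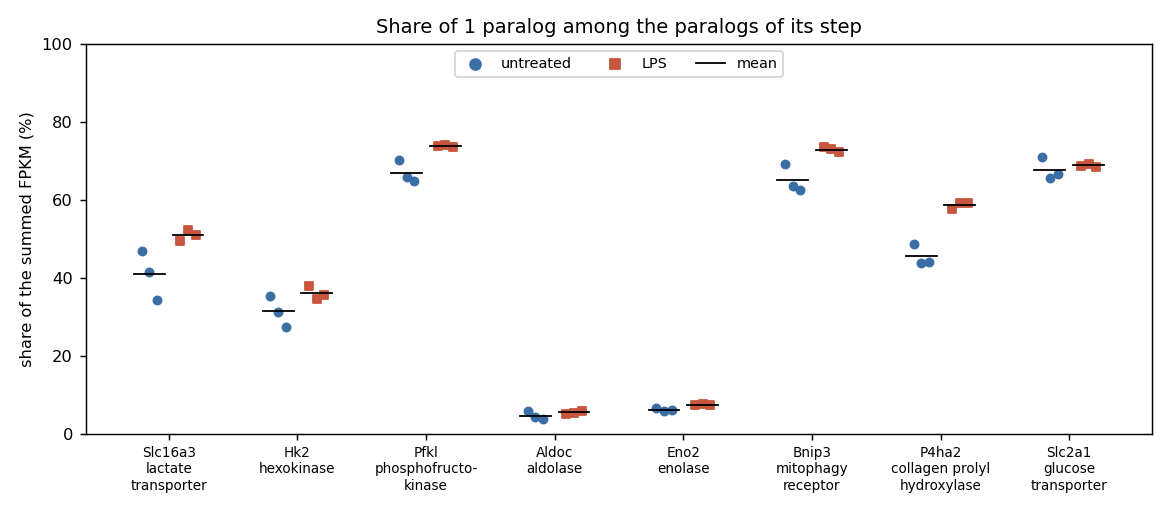
Share of 1 paralog in the summed FPKM of the members of its family, in percent, for each untreated (blue circles) and LPS (red squares) library. The line is the group mean. The groups are separate for Slc16a3, Pfkl, Eno2, Bnip3 and P4ha2 and overlap for Hk2, Aldoc and Slc2a1.

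The kinases that set the flow through glycolysis did not move together. Pdk1, which shuts pyruvate out of mitochondrial oxidation by inhibiting pyruvate dehydrogenase, stood at 23.6, 19.2 and 16.6 FPKM untreated and 37.8, 35.2 and 35.8 with LPS (1.77-fold, adjusted p = 0.000681). The bifunctional enzymes Pfkfb3 and Pfkfb4, which make the phosphofructokinase activator fructose 2,6-bisphosphate, did not pass. Pfkfb3 stood at 7.38, 5.15 and 4.92 FPKM untreated and 7.03, 6.50 and 6.71 with LPS, so untreated replicate 1 lay above all LPS libraries. Its adjusted p was 0.378, and 0.0014 without untreated replicate 1, where the fold was 1.29. Pfkfb4 was low, at 2.18 ± 0.260 and 2.27 ± 0.314 FPKM (SD, n = 3, adjusted p = 0.956), and the sign of its change differed between scalings.

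In the pentose phosphate pathway the 3 measured members rose, beside 20.1% of all tested genes. All 3 rose by less than the median glycolytic enzyme. The gap was small for H6pd (log2 fold change 0.732 against 0.758). H6pd, the hexose 6-phosphate dehydrogenase of the endoplasmic reticulum, stood at 8.15, 6.65 and 7.19 FPKM untreated and 12.9, 12.7 and 12.2 with LPS (1.66-fold, adjusted p = 0.000187). Transketolase (Tkt) and transaldolase (Taldo1), which link the pathway back to glycolysis, stood at 63.4, 55.1 and 59.1 and at 37.3, 34.9 and 35.9 FPKM untreated. With LPS they stood at 77.7, 79.0 and 76.9 and at 44.1, 44.6 and 44.2 FPKM, rises of 1.27-fold and 1.19-fold (adjusted p = 0.00144 and 0.00228). The groups were separate and the replicates close in all 3. The median log2 fold change was 0.35, against 0.76 for the glycolytic enzymes, and the difference between the lists was not tested.

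Of 5 tested genes of a further pentose phosphate list 1 rose and 0 fell, beside 20.1% and 19.0% of all tested genes. Rpia, which isomerises ribose 5-phosphate, stood at 7.07, 5.44 and 6.62 FPKM untreated and 8.45, 8.78 and 9.16 with LPS. The rise was 1.33-fold (adjusted p = 0.0157), a call lost without LPS replicate 2, and the other 4 genes did not pass.

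The 4 members that encode HIF alpha subunits or prolyl hydroxylases were called higher, with very different support, beside 20.1% of all tested genes. Egln3 among them entered the test only through its LPS libraries. The third prolyl hydroxylase gene Egln2, which is no member, did not pass (1.11-fold, adjusted p = 0.116). Without untreated replicate 1 it passed as higher (1.14-fold, adjusted p = 0.0357). Hif1a, the gene of HIF-1 alpha, is annotated on chromosome 6 (plus strand, 92624390 to 92669261, mRatBN7.2). It stood at 131, 78.3 and 78.7 FPKM in untreated replicates 1, 2 and 3 and at 147, 140 and 144 with LPS. Untreated replicate 1 thus lay close to the LPS libraries. The log2 fold change was 0.53 ± 0.18 (SE, adjusted p = 0.0422). The call was lost in 9 of 16 alternatives, among them DESeq2 (0.0869), quantile normalisation (0.0763) and leaving out any 1 of the remaining 5 libraries (0.0969 to 0.122). Without untreated replicate 1 the rise was 1.76-fold (adjusted p = 1.63e-08). Epas1, the gene of HIF-2 alpha, stood at 5.98, 6.29 and 6.30 FPKM untreated and 11.8, 12.6 and 10.8 with LPS (1.83-fold, adjusted p = 7.13e-05). It was the called member in which untreated replicate 1 lay furthest from LPS.

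Egln1, the prolyl hydroxylase PHD2 that is the main HIF oxygen sensor, stood at 37.1, 27.6 and 24.8 FPKM untreated and 60.2, 65.0 and 58.2 with LPS (1.98-fold, adjusted p = 0.000643). Egln3 (PHD3), which HIF itself induces in many cells, was near 0 without LPS, at 0.290, 0 and 0.0144 FPKM, and at 1.57, 1.54 and 1.41 FPKM with it. Its log2 fold change was 3.82 ± 0.87 (SE, adjusted p = 0.00906), a call that DESeq2 did not make (adjusted p = 0.0616). With every untreated value below 1 FPKM, Egln3 could enter the test only if high with LPS. Without the filter its edgeR adjusted p was 0.0226. The untreated value came mostly from replicate 1. Taking 4 count units as 1 fragment, the LPS libraries held 280 fragments and the untreated ones 19, of which 1 was outside replicate 1, a ratio of 183 without it (exact 95% interval 32.6 to 7270, counting error only).

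Among the HIF targets outside glycolysis, 7 of 11 tested genes rose (63.6%, beside 20.1% of all tested genes), 0 fell and 4 did not pass. Their median log2 fold change was 0.55. Adm encodes adrenomedullin, a vasodilator peptide, on chromosome 1 (plus strand, 164745466 to 164747654, mRatBN7.2). It stood at 11.6, 5.00 and 4.21 FPKM untreated and 42.0, 38.9 and 38.9 with LPS, with a log2 fold change of 2.47 ± 0.33 (SE, adjusted p = 0.000688). Only 46 of the 11559 tested genes had a greater log2 fold change. Untreated replicate 1 was again the highest untreated library, and the fold rose from 5.56 to 8.36 without it.

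Ndrg1, a stress-induced gene, stood at 31.6, 19.4 and 18.7 FPKM untreated and 49.2, 45.3 and 47.5 with LPS (1.97-fold, adjusted p = 0.003). Bnip3, a receptor that marks mitochondria for autophagy, stood at 50.4, 28.6 and 26.7 FPKM untreated and 73.8, 71.0 and 67.3 with LPS (1.94-fold, adjusted p = 0.00739). Ero1a, the oxidase that forms disulphide bonds in the endoplasmic reticulum, stood at 41.7, 26.0 and 25.3 FPKM untreated and 64.1, 61.6 and 60.0 with LPS (1.93-fold, adjusted p = 0.00278). In all 3 genes the groups were separate. Bnip3l (NIX, the related mitophagy receptor) and Ddit4 (REDD1, an inhibitor of mTORC1) rose 1.39-fold and 1.46-fold. Bnip3 took 65.1% ± 3.59 of the summed FPKM of the Bnip3 pair untreated and 72.9% ± 0.636 with LPS (SD, n = 3, exact p = 0.1, the smallest possible).

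The collagen prolyl 4-hydroxylase subunits, which modify collagen so that its helix holds at body temperature, differed from each other. P4ha2 stood at 102, 82.7 and 75.6 FPKM untreated and 145, 157 and 151 with LPS (1.68-fold, adjusted p = 0.000573). P4ha1 stood at 108, 106 and 95.8 FPKM untreated and 107, 107 and 104 with LPS, with overlapping groups. Its log2 fold change was -0.01 ± 0.05 (SE, adjusted p = 0.92), and its sign differed between scalings. P4ha2 was the minor form in all untreated libraries, at 45.6% ± 2.72 of their summed FPKM, and the major one in all LPS libraries, at 58.7% ± 1.02 (SD, n = 3). This order depends on the unit, since in counts, which are not per length, P4ha2 was the minor form in all 6 libraries, at 31.8% ± 2.40 and 44.2% ± 1.03 (SD, n = 3). The shift of 13.2 percentage points in FPKM was the largest among the 11 families (exact p = 0.1, the smallest possible, 0.183 adjusted).

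The other targets that did not pass were Car9, Kdm3a and Ankrd37. Car9, a surface carbonic anhydrase and a common hypoxia marker, stood at 20.9, 18.2 and 15.6 FPKM untreated and 21.4, 22.9 and 20.8 with LPS (adjusted p = 0.122). Kdm3a, a histone demethylase, stood at 10.7, 9.03 and 8.30 FPKM and at 11.4, 10.6 and 10.8 (adjusted p = 0.121). Ankrd37 stood at 2.55, 1.48 and 1.49 FPKM and at 2.23, 2.39 and 2.199 (adjusted p = 0.405). In each the overlap came from untreated replicate 1. Without that library they passed as higher, with adjusted p of 0.0036 for Car9, 0.00169 for Kdm3a and 0.0253 for Ankrd37 and folds of 1.24, 1.22 and 1.47. The count of members higher was then 38 of 40, Egln3 among them, beside 22.8% of all tested genes. Car12, a second carbonic anhydrase, was below the filter, at 0.405, 0.195 and 0.0899 FPKM untreated and 1.29, 1.16 and 0.932 with LPS.

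The core letters of the hypoxia response element, ACGTG or GCGTG, were searched on both strands of the stretch from 250 bases before to 50 after each RefSeq start in the rat build GRCr8, a different build from that of the deposited table. For 36 members 41 such starts were listed, and 28 of them (68.3%) held a match, against 62.0% of the 9635 starts of other tested genes and 41.6% of all 33469 starts. ACGTG alone, counted in addition and overlapping the E-box CACGTG, was in 53.7% of member starts and 25.6% of those of other tested genes. Median GC content was 64.0% and 61.3%. Of the starts of members that did not pass, 5 of 7 held a match and 4 of 7 held ACGTG. For the 33 starts of members called higher the shares were 66.7% and 51.5%. No match was found in the windows of Egln3, Adm and Slc16a3, which had the largest rises, and this says only that the letters are not in these windows. The promoters below are those of the 3 called members with the largest rises among those with a match, so that the spacing of the matches, in capitals, can be seen. They are read 5′ to 3′ along the gene, with reverse-strand matches as CACGT or CACGC. The Slc2a1 stretch is chr5:138002272-138002571 on the plus strand, that of Egln1 is chr19:69804632-69804931 on the minus strand and that of Bnip3 is chr1:203154913-203155212 on the minus strand, all in GRCr8 from RefSeq.
Slc2a1 promoter: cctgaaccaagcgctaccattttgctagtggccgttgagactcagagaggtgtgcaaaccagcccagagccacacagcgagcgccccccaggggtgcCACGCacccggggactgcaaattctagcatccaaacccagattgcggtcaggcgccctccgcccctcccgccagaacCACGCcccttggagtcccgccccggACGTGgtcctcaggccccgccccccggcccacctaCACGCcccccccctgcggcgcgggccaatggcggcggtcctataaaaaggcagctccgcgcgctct
Egln1 promoter: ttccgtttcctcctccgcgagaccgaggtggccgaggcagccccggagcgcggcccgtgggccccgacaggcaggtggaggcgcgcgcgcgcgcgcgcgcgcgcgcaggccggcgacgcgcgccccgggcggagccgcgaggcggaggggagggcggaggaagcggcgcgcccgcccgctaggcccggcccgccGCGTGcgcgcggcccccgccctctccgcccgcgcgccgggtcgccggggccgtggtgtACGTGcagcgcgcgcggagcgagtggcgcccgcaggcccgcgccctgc
Bnip3 promoter: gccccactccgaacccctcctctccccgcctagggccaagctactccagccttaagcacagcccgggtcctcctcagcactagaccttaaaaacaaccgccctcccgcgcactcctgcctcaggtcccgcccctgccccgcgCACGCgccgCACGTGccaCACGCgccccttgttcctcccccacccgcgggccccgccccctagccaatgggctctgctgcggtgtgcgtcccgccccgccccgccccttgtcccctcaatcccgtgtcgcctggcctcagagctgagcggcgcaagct
A match is a description of these letters and not a bound site. The Slc2a1 window held 4 matches, the Egln1 window 2 and the Bnip3 window 4, of which a pair overlap in the palindrome CACGTG.

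Genes of the same pathways outside the members were counted in the same fit. Over all tested genes of this fit 20.1% were higher and 19.0% lower, and the median log2 fold change was 0.00. Of 12 tested genes for the entry of pyruvate into mitochondria, among them pyruvate dehydrogenase subunits and the pyruvate carriers Mpc1 and Mpc2, 1 rose, 0 fell and 11 did not pass, around a median log2 fold change of 0.01. The exception was Pdk3, a relative of Pdk1, at 22.9, 17.9 and 16.7 FPKM untreated and 28.0, 29.2 and 25.3 with LPS (1.39-fold, adjusted p = 0.00957). Pdha1, the catalytic subunit of pyruvate dehydrogenase, stood at 55.0 ± 0.117 and 52.8 ± 1.13 FPKM (SD, n = 3, adjusted p = 0.0712). With other scalings or filters these 12 pyruvate genes had up to 2 higher or 1 lower. Of 12 tested other genes of glycolysis and gluconeogenesis, 6 rose and 2 fell, and without LPS replicate 2 the numbers were 3 and 1. Phosphoglucomutase Pgm1, which links glycolysis to glycogen, rose 1.72-fold, and the mitochondrial glycerol phosphate dehydrogenase Gpd2 rose 1.60-fold. Pfkfb2 fell from 1.88 ± 0.309 to 1.41 ± 0.0704 FPKM (SD, n = 3), a call lost in 7 of 15 alternatives. Eno3, the muscle enolase, was the other gene that fell, and its call was lost in 8 of 16.

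Of 12 tested other genes of the HIF machinery 4 rose (33.3%, beside 20.1% of all tested genes) and 0 fell, and their median log2 fold change was 0.10. With quantile normalisation 1 rose. The HIF partner Arnt2 rose 1.73-fold from 1.86, 1.35 and 1.77 FPKM to 2.93, 2.72 and 3.24, while its far more abundant relative Arnt stood at 12.03 ± 0.772 and 12.6 ± 0.360 FPKM (SD, n = 3, adjusted p = 0.788). P4hb, the partner subunit of the collagen prolyl hydroxylases, rose 1.28-fold, and Vhl, which recognises hydroxylated HIF, 1.18-fold, a call lost in 7 of 16 alternatives. Hif1an, the asparaginyl hydroxylase that inhibits HIF, stood at 6.06 ± 0.155 and 5.88 ± 0.339 FPKM (SD, n = 3, adjusted p = 0.292).

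A wider list of HIF targets had 37 tested genes, of which 24 rose (64.9%), 6 fell and 7 did not pass. Of all tested genes 20.1% were higher and 19.0% lower. The median log2 fold change of the list was 0.46. The largest rises were those of Angptl4, an inhibitor of lipoprotein lipase, at 1.47, 0.0367 and 0.0686 FPKM untreated and 30.8, 37.5 and 27.2 with LPS, and Stc1 (stanniocalcin), at 3.73, 1.03 and 0.647 and at 17.4, 16.9 and 14.3. Their folds of 57.6 and 8.70 were 528 and 18.6 without untreated replicate 1. The mitochondrial adenylate kinase Ak4 rose 2.06-fold (adjusted p = 0.00633). The genes that fell were named after their values were seen. The largest falls were those of Bhlhe41 (log2 fold change -0.92, adjusted p = 0.000283) and Ppfia4 (-0.81, 0.000355). Bhlhe40 (-0.43, 0.00251) and Vldlr (-0.18, 0.0167, a call kept in 9 of 16 alternatives) fell less. The heme oxygenase Hmox1 stood at 82.7, 70.8 and 66.6 FPKM untreated and 48.6, 52.6 and 53.5 with LPS (adjusted p = 0.000882). The lysyl oxidase relative Loxl2 stood at 130, 169 and 165 and at 109, 106 and 109 (adjusted p = 0.00205). Vegfa, the classic hypoxia-induced angiogenic factor, named here after its values were seen, stood at 80.0, 66.6 and 55.5 FPKM untreated and 80.0, 80.7 and 81.3 with LPS (adjusted p = 0.155), and passed only without untreated replicate 1 among the 16 alternatives.

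**Figure D4:**
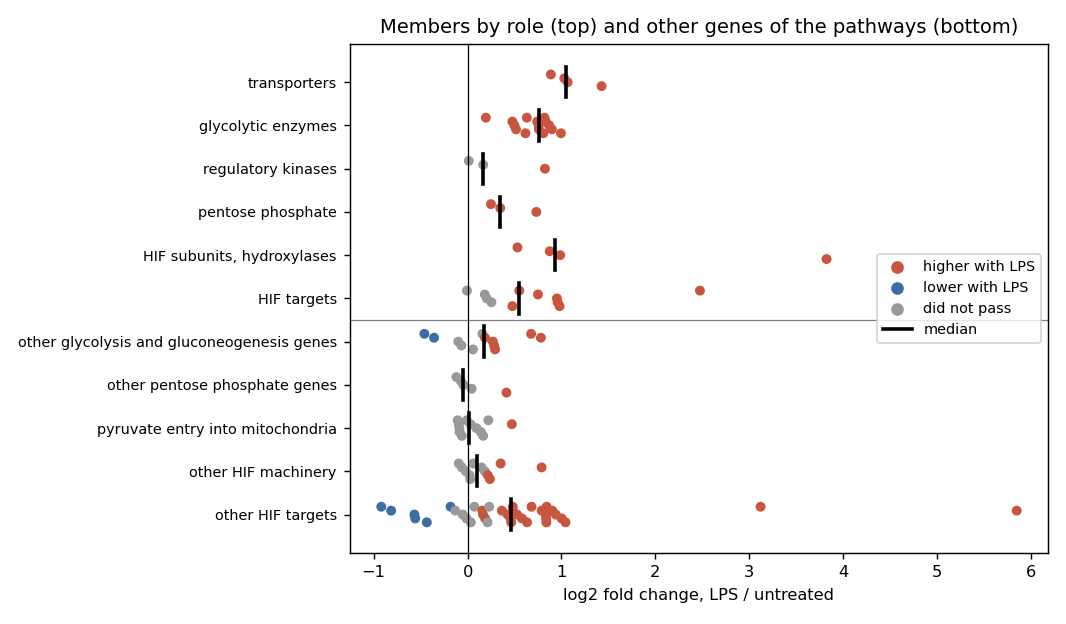
Log2 fold change, LPS over untreated, of each tested member by role (upper rows) and of other genes of the same pathways (lower rows), coloured by direction among genes that passed, with medians as black bars. The glycolytic enzymes all lie to the right of 0 with a median of 0.76. The genes of pyruvate entry into mitochondria centre on 0.01, near the median of 0.00 over all tested genes.

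Across the 34 called members, untreated replicate 1 was displaced towards LPS. Its median position was 42.2%, with 0% at the mean of untreated replicates 2 and 3 and 100% at the LPS mean on log2(FPKM + 1), against 20.2% over all 4524 called genes and 23.6% over the 2323 of them that were higher with LPS. The glycolytic enzymes had a median of 44.4% with a range from 35.8% to 70.6%, so all 15 were displaced in the same direction. The 7 called HIF targets outside glycolysis had a median of 54.9%, and the 3 pentose phosphate enzymes one of 26.7%. Hif1a stood at 85.3% and Epas1 at -7.83%, the highest and the lowest of the 34. These positions have no test, and the labels give no difference between this library and its group.

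**Figure D5:**
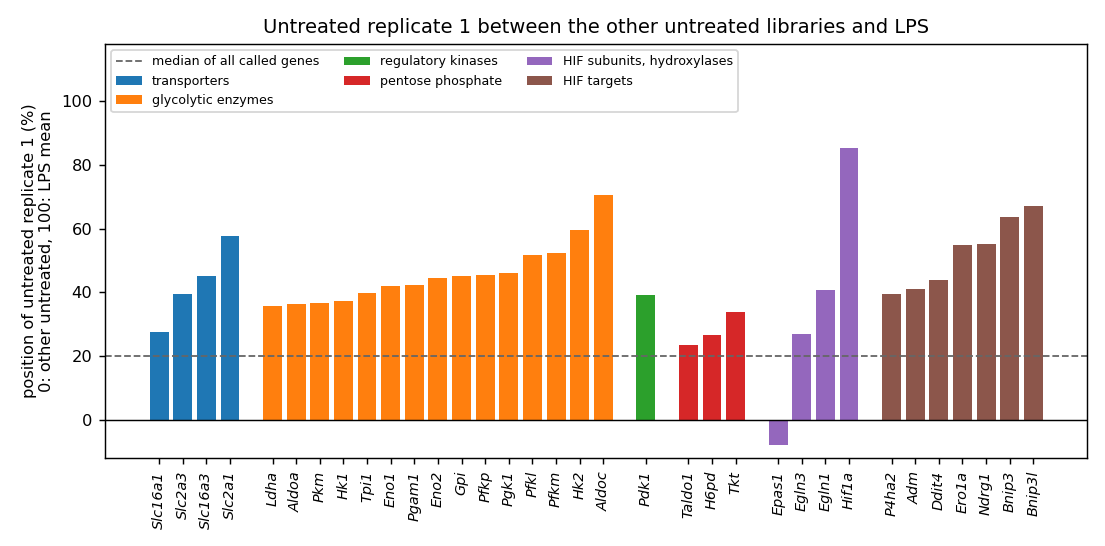
Position of untreated replicate 1 for each of the 34 called members, in percent, between the mean of untreated replicates 2 and 3 (0) and that of LPS (100) on log2(FPKM + 1), coloured by role. All bars but that of Epas1 are above 0, Hif1a is the highest at 85.3%, and the dashed line is the median of 20.2% over all called genes.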

How the data were processed

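Poly(A)-selected, strand-marked paired-end RNA-seq was measured in 3 untreated and 3 LPS libraries. The submitters' processing notes list HISAT2 2.2.1, StringTie 2.1.6 and cutadapt 1.9, with edgeR and DESeq2, on mRatBN7.2. Annotation release, strand setting and the derivation of the counts are not given in these notes. Per the file headers, the authors deposited FPKM and a count per gene and library. As deposited by the authors, the values taken here as estimated counts carry no normalization. They are whole, but 31.9% to 32.9% of values from 1 to 40 were multiples of 4 (25% by chance), so 1 fragment was taken as about 4 units, or 19.3 M to 20.5 M fragments per library.

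Genes with FPKM of at least 1 in at least 3 libraries were tested with edgeR 4.0.16 (trimmed-mean factors, glmQLFit, glmQLFTest, group as the only term; SE: absolute log2 fold change over the root of F). Adjusted p-values come from this test unless another is named. Paralog shares used scipy 1.17.1. Alternatives used DESeq2 1.42.0, limma 3.58.1, other scalings, filters, pseudocounts and units, a replicate block, and leaving out each library. Of the calls, 51.3% were higher with LPS, 62.7% with library totals alone and with limma on log2(FPKM + 1), 44.9% with quantile normalisation and 44.3% with the 50 most abundant genes kept out of library sizes.

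Replicate numbers recur in both groups, but same-numbered libraries had correlations of deviations of 0.0689, 0.0846 and 0.125, so the fit is unpaired. Counts were simulated for the 11559 genes with a common dispersion and 200 genes changed. In them the edgeR step recovered 82% of genes changed 1.5-fold and 100% changed 2-fold, with 5.45% of calls false. In the data 39.1% of genes were called. Dispersions that differ between genes and a library apart from its group were not simulated, so these rates may not hold here. All members are named, with values per library for up to 4 called members with the largest change and the most abundant one in each role, and further ones chosen after their values were seen. Per pathway list up to 3 called genes with the largest change are named, and further ones were chosen after their values were seen. Members and lists were chosen with earlier results of these data known. Protein sequences were not used here. Some genes of the lists are not reported here.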

Additional observations from a re-analysis of the deposited data

How the results depend on the processing

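Over 16 alternatives, 30 of the 40 tested members kept their direction and side of the threshold, and 0 members were lower in any. The count of members higher ran from 31 to 38 on leaving out 1 library each and from 32 to 34 otherwise, with 34 under the replicate block, where 2160 genes in all were higher and 2024 lower. The replicate block changed the call of no member. Regulatory kinases higher numbered 1, and 1 to 2 on leaving out 1 library, with Pfkfb3 added without untreated replicate 1. HIF subunits and hydroxylases higher numbered 4, and 2 with DESeq2, which lost Hif1a and Egln3. The median log2 fold change of the enzymes ran from 0.61 without untreated replicate 3 to 0.958 without untreated replicate 1. The log2 fold change of Pfkfb4 was -0.0168 when the 50 most abundant genes were kept out of library sizes and -0.00235 with quantile normalisation, and -0.0916 to 0.103 on leaving out 1 library. That of P4ha1 was 0.0469 with library totals, 0.0428 and 0.0431 with limma at pseudocounts of 1 and 0.1, and -0.0516 to 0.021 on leaving out 1 library. Neither passed in any, and the cause was not tested. Counts are low for Egln3, Car12, Ankrd37 and Pfkfb4, which limits the precision of their values.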
